A study of Mus musculus with 10 samples.

Results

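The transcripts described here are those of the mouse mitochondrial genome, taken as all rows of the deposited gene table whose symbol begins with mt-. This rule gave 37 of 54532 rows: 13 mRNAs, 2 rRNAs and 22 tRNAs. RNA was sequenced from primary peritoneal macrophages, the resident phagocytes of the abdominal cavity, in 10 libraries. Young wild-type mice gave 4 libraries (replicates A, B, C and E), aged wild-type mice gave 3 (replicates 3, 4 and 6), and aged mice labelled Trem1-/- gave 3 (replicates 1, 2 and 3). Trem1 encodes an activating receptor of myeloid cells, and the series asks how its deletion affects gene expression during aging. No young Trem1-/- group is among the libraries, so age and genotype can be compared only along these 3 groups. The labels give no age in months, no sorting step and no batch. Separate mice for each library are not stated in them, so p-values reflect only how far these samples spread, and that spread may be technical. Whether fewer cells of a type or less RNA per cell lies behind a lower value cannot be told apart in such bulk libraries.

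The mitochondrial genome is a small circle that is transcribed from both strands into long precursors. The precursors are cut, mostly at the tRNAs that lie between the other genes, into mRNAs for core subunits of the respiratory chain and ATP synthase, the rRNAs of the mitochondrial ribosome, and the tRNAs that read its code. All other proteins of mitochondria, including those that copy, transcribe and translate this genome, come from nuclear genes, and pieces of mitochondrial sequence have been copied into the nuclear genome during evolution.

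Of the 37 genes, 28 lie on the plus strand of chrM in GRCm38 (GENCODE M21) and 9 on the minus strand, namely mt-Nd6 and 8 tRNAs. The genes are packed closely: mt-Rnr1, mt-Tv, mt-Rnr2, mt-Tl1 and mt-Nd1 follow each other with 0 bases between them, and mt-Atp8 and mt-Atp6, both subunits of ATP synthase, share 43 bases of 1 transcript. That shared stretch is shown because a read inside it belongs to both genes; the capitals mark the start codon of mt-Atp6 and the stop codon of mt-Atp8 (chrM:7927-7969, plus strand).
mt-Atp8 and mt-Atp6 overlap: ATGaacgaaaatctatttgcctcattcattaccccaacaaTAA
The tRNAs that carried most tRNA reads, for proline and cysteine, are shown on the minus strand with their anticodons in capitals (mt-Tp, chrM:15356-15422; mt-Tc, chrM:5192-5257).
mt-Tp: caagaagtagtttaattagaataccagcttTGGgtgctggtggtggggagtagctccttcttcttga
mt-Tc: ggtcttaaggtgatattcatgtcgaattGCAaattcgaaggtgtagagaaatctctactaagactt
The last pairs show how little separates some members from a nuclear copy within the aligned stretch, with the base that differs there in capitals. It is T3C between mt-Nd3 (chrM:9459-9476) and the pseudogene Gm28438, and A1066T between mt-Co1 (chrM:6390-6408) and the pseudogene Gm29216. The alignment to Gm29216 starts at base 10 of that pseudogene, and its earlier bases did not align. Positions count from the first base of the mitochondrial gene, and all sequences are from GENCODE M21 transcripts.
mt-Nd3: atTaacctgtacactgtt
Gm28438: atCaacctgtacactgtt
mt-Co1: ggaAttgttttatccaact
Gm29216: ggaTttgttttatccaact

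Between 2663744 and 5603498 reads per library were recovered from the deposited normalized counts (reads scaled by the authors to make libraries comparable). Trem1 itself was read in all 10 libraries, with 23.5, 106 and 13.8 normalized counts in the libraries labelled Trem1-/- against 64.0, 15.3 and 27.0 in aged wild type (exact two-sided permutation p = 0.9, the smallest possible being 0.1), so counts of the gene do not separate these labels and the genotype is used as labelled. All 10 macrophage markers examined were read in each group, and their summed level was 72423 to 80420 normalized counts in the young group, 62333 to 81661 where Trem1-/- was the label, and 23938 to 37343 in aged wild type. Markers of B cells summed to 2336 to 4967, 5634 to 11988 and 12179 to 19726 in the same order of groups, and those of T and NK cells to 29.1 to 63.6, 41.9 to 75.3 and 206 to 347, with Ncr1 at 0 in the libraries labelled Trem1-/-. The aged wild-type libraries therefore stood apart in cell-type markers as well as in the transcripts below. The part of cell composition in the differences was not tested. Gm26917, a gene outside the mitochondrial set, also set these libraries apart. It took 12.9%, 8.38% and 8.86% of reads in aged wild-type replicates 3, 4 and 6. Its share was at most 5.70% in young libraries and at most 5.68% in those labelled Trem1-/-. The reason for this difference was not tested.

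Nearly all mitochondrial reads came from mRNAs and rRNAs. Over the 10 libraries the 2 rRNAs held 490928 reads, the 13 mRNAs 351391 and the 22 tRNAs 702. Per kilobase of gene, mt-Rnr2, the rRNA of the large ribosomal subunit, had the highest mean level (27532 normalized counts per kb), followed by mt-Co1, the catalytic subunit of cytochrome oxidase (8178), and mt-Rnr1, the rRNA of the small subunit (5416). The complex III subunit mt-Cytb (4306) and the complex I subunit mt-Nd1 (4300) were next to each other in that order and did not differ beyond their spread. They were followed by the complex I subunits mt-Nd5 (3797), mt-Nd6 (2685), mt-Nd2 (2287) and mt-Nd4 (1676 per kb). The other mRNAs were lower: mt-Atp6 had 368 per kb, the oxidase subunit mt-Co2 169, and mt-Nd3, mt-Co3, mt-Atp8 and mt-Nd4l 86.7 to 114. Counts per kilobase thus differed widely even between mRNA genes that follow each other on the plus strand, as mt-Co1 and mt-Co2 do. The level of mt-Co2 is uncertain, because a nuclear copy matches nearly its whole length, as described below.

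**Figure D1:**
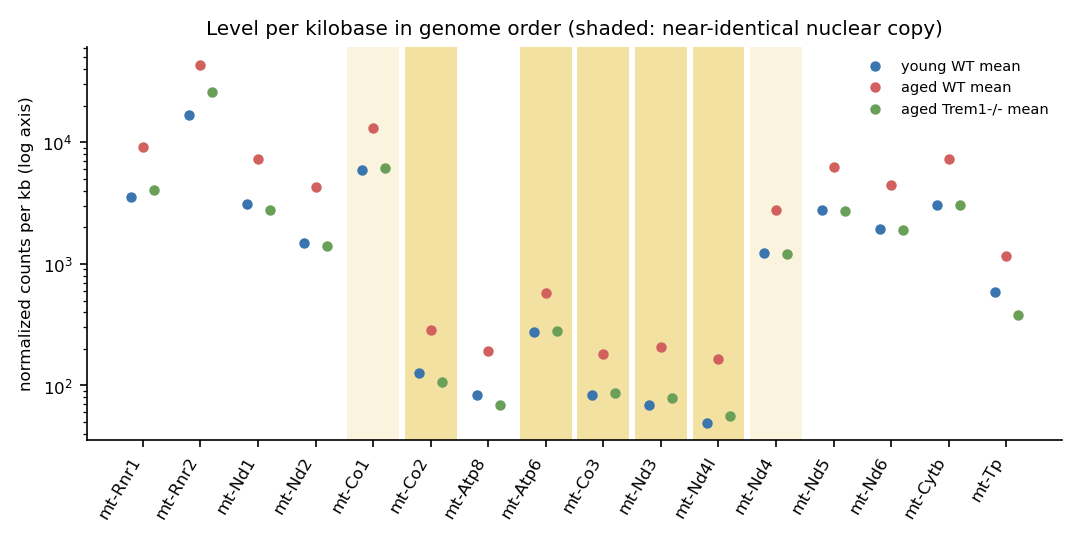
Mean level per kilobase (normalized counts per kb, log axis) of the 16 mitochondrial genes that passed the filter on low values, in genome order; points are group means of young wild type (n = 4), aged wild type (n = 3) and aged Trem1-/- (n = 3). Dark shading marks the 5 genes copied over nearly their whole length in the nuclear genome and pale shading those copied in part; the dark-shaded genes and mt-Atp8 lie lowest, and aged wild type is the highest point for each gene.

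The low mRNAs coincided with near-identical nuclear copies. An alignment of the members to all other GENCODE M21 transcripts found 7 unprocessed pseudogenes in 1 stretch of chromosome 1 (24611535 to 24616197, minus strand, GRCm38) that match 7 members at 99.71% to 100% identity. The copies Gm28661, Gm10925, Gm28437, Gm28438 and Gm10222 cover 98.99% to 99.87% of mt-Co2, mt-Atp6, mt-Co3, mt-Nd3 and mt-Nd4l. Gm28439 covers 63.6% of mt-Nd4, and Gm29216 covers 31.3% of mt-Co1. Members with a copy over nearly their whole length had 86.7 to 368 normalized counts per kb, and the 5 mRNAs with no near-identical copy other than mt-Atp8 had 2287 to 4306. mt-Atp8, which lies between mt-Co2 and mt-Atp6, has no annotated copy that reaches the minimum of 100 aligned bases. The 43 bases it shares with mt-Atp6 are, however, part of Gm10925. No genome sequence was used here, so copies outside annotated transcripts were not searched.

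For 4 of the 5 members copied over nearly their whole length, the copy had the higher mean. The mean of Gm28661 was 1.61 times that of mt-Co2, Gm10222 had 1.57 times the mean of mt-Nd4l, Gm28437 had 1.35 times that of mt-Co3 and Gm10925 had 1.33 times that of mt-Atp6. For mt-Nd3, which differs from Gm28438 at 1 base, the ratio was 0.308. The partial copies had 0.0293 (Gm28439) and 0.0154 (Gm29216) times the means of mt-Nd4 and mt-Co1. Over these 5 pairs the copies held 54.9% to 58.9% of the summed counts in every library, whatever its group, and aged wild-type replicate 4, which had the highest values of the 5 members, also had the highest value of each of the 7 copies. How reads that fit several places were counted is not given in the sources used here, so the levels of these members are uncertain, and a read cannot be assigned between a member and an identical copy. Another 9 annotated copies had 90.7% to 97.6% identity and means of 0 to 33.9 normalized counts.

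Comparing aged with young wild type asks how these transcripts differ with age. They were higher in aged wild type: of the 16 members whose mean reached 10 normalized counts, 13 rose and 0 fell (limma on log2(normalized count + 1), Benjamini-Hochberg adjusted p under 0.05 over 11506 genes), against 14.3% of all genes tested that rose and 33.3% called in either direction. The 13 comprised 11 of 13 mRNAs and both rRNAs. The median log2 fold change of the 16 was 1.04 (range 0.70 to 1.52), and that of all genes tested was -0.02. For 12 of the 16 every aged wild-type library lay above every young library, against 18.4% of all genes. The members are cut from shared precursors, so their calls are not independent of each other in this or the later comparisons. Aged wild-type replicate 4 set much of the size of the rise. That library was the highest for 15 of the 16 members, with mRNAs at 2.45 to 5.02 times the mean of the other two aged wild-type libraries, while the mean of those other two was 1.12 to 1.89 times the young mean. Without replicate 4, 8 members rose (mt-Rnr1, mt-Rnr2, mt-Nd1, mt-Nd4, mt-Nd5, mt-Nd6, mt-Co1 and mt-Cytb) and the median was 0.51. Leaving out other single libraries also changed the count, to 5 without young replicate A or E and 6 without B, within a range of 5 to 14. mt-Co1, mt-Nd5, mt-Nd6 and mt-Rnr1 rose in each of the 10 fits with 1 library left out.

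Among the complex I subunits, which form the membrane arm of the enzyme that takes electrons from NADH, mt-Nd5 had 4480, 4584, 6658 and 4379 normalized counts in young replicates A, B, C and E. Its values in aged wild type (replicates 3, 4 and 6) were 7237, 19339 and 7734. All aged wild-type libraries were above all young ones, and it rose by 1.05 ± 0.29 on the log2 scale (SE, limma adjusted p = 0.0164). mt-Nd6, the only mRNA on the minus strand, had 879, 934, 1308 and 929 in young and 1554, 3805 and 1553 in aged wild type. Those groups did not overlap either (1.07 ± 0.27, limma adjusted p = 0.0115). mt-Nd1 had 2652, 2653, 3965 and 2717 against 3968, 12822 and 4332, with the lowest aged library just above young replicate C (1.03 ± 0.33, limma adjusted p = 0.0315). mt-Nd4 had 1532, 1562, 2116 and 1528 against 2104, 6902 and 2379. Its groups overlapped at young replicate C and aged replicate 3, and it passed with 0.97 ± 0.32.

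mt-Nd2 had 1367, 1331, 2031 and 1385 normalized counts in young and 1824, 9494 and 1960 in aged wild type. Its aged value rested most on replicate 4, young replicate C lay above the other aged libraries, and it did not pass (1.11 ± 0.45, limma adjusted p = 0.0781). The low mt-Nd3 had 19.2, 23.4, 24.0 and 30.2 against 44.8, 132 and 40.4. mt-Nd4l, whose last 7 bases it shares with mt-Nd4, had 15.7, 14.8, 14.4 and 13.9 against 29.4, 92.8 and 26.1. Every aged library exceeded every young library for both, which rose by 1.34 ± 0.39 and 1.44 ± 0.45, and both lost the call without aged replicate 4 (adjusted p = 0.0669 and 0.11). In all, 6 of 7 complex I mRNAs rose.

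The subunits of the later complexes followed. mt-Cytb, the cytochrome b of complex III, had 3049, 3115, 4618 and 3158 normalized counts in young and 4631, 14967 and 5304 in aged wild type (1.06 ± 0.33, limma adjusted p = 0.0271). mt-Co1 had 8563, 8301, 11710 and 8343 against 12593, 34141 and 14211 (1.002 ± 0.28, limma adjusted p = 0.0186). Neither gene's groups overlapped, and young replicate C was the highest young library for each. mt-Co2, the copper-binding subunit that receives electrons from cytochrome c, had 84.5, 89.9, 94.9 and 74.4 against 116, 359 and 114. The third oxidase subunit, mt-Co3, had 66.2, 59.7, 68.5 and 65.1 against 87.0, 244 and 91.6. These groups did not overlap, and the genes rose by 0.97 ± 0.34 and 0.94 ± 0.32, calls that were lost without aged replicate 4 (adjusted p = 0.12 and 0.122).

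Of the ATP synthase subunits, which sit in the proton channel part of the enzyme, mt-Atp6 rose and mt-Atp8 did not pass. mt-Atp6 had 185, 196, 221 and 149 normalized counts in young and 246, 691 and 251 in aged wild type, with no overlap (0.91 ± 0.32, limma adjusted p = 0.0478). mt-Atp8 had 27.9, 14.8, 15.6 and 10.5 against 14.1, 78.6 and 24.3, so that only aged replicate 4 lay above all young libraries (0.86 ± 0.50, limma adjusted p = 0.207). Without aged replicate 4, mt-Atp6 also failed to pass (adjusted p = 0.129). In the authors' deposited table, 12 of 13 mRNAs and both rRNAs were higher at an adjusted p under 0.05, and 0 members were lower. These were among 21 members with an adjusted p (10.6% of all genes with one were higher). Its headers name no groups, and its comparison was matched to aged against young wild type by the direction and size of the values.

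**Figure D2:**
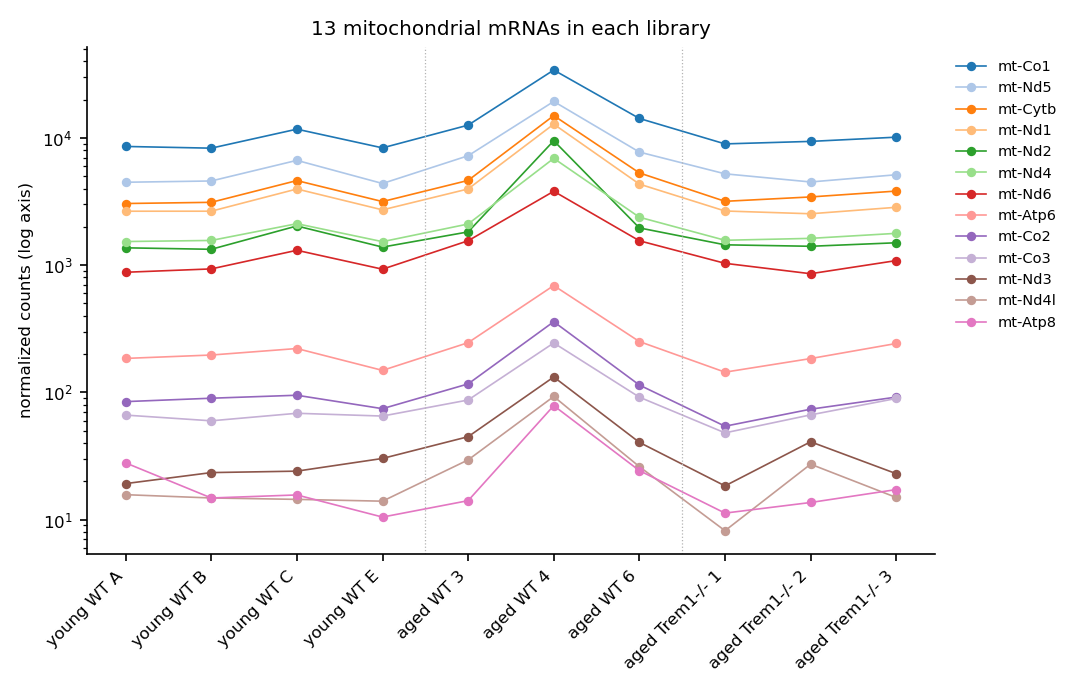
Normalized counts (log axis) of the 13 mitochondrial mRNAs in each of the 10 libraries; each coloured line joins 1 gene's values and dotted lines separate the groups. Aged wild-type replicate 4 is the peak for each mRNA, aged replicates 3 and 6 lie lower, and young replicate C stands above the other young libraries for the more abundant genes, as for mt-Co1 with 11710 against 8301 to 8563.

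The rRNAs rose as well, but with different patterns across libraries. mt-Rnr1 (chromosome M, 70 to 1024) had 3553, 2659, 4274 and 3203 normalized counts in young wild type, 5324, 15364 and 5623 in aged wild type, and 3244, 4124 and 4350 in aged Trem1-/-. Like the mRNAs, it peaked in aged replicate 4, and aged wild type did not overlap either other group. It rose with age by 1.19 ± 0.31 on the log2 scale (limma adjusted p = 0.013), and its ratio to the summed mRNAs stayed between 0.116 and 0.171 over the 10 libraries. mt-Rnr2 (1094 to 2675) had 48651, 15514, 23456 and 18337 in young, 68335, 63371 and 73958 in aged wild type, and 17078, 52143 and 54709 in the libraries labelled Trem1-/-. Aged wild type was again above both other groups, with replicate 4 the lowest of its group. It rose with age by 1.52 ± 0.43 (limma adjusted p = 0.019).

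The ratio of mt-Rnr2 to mt-Rnr1 fell into separate ranges that crossed the groups. It was 13.7 in young replicate A, 12.8 and 13.2 for the aged wild-type replicates 3 and 6, and 12.6 in Trem1-/- replicates 2 and 3. In young replicates B, C and E it was 5.83, 5.49 and 5.72, in aged replicate 4 it was 4.12, and in Trem1-/- replicate 1 it was 5.26. Each group thus held libraries of both kinds, and the labels name no batch that matches them. The same libraries differed in the share of rRNA among mitochondrial reads, which was 67.6% to 69.9% in those with the high ratio and 43.3% to 48.5% in the others. The split was uneven over the groups, with only replicate A having the high ratio in young. mt-Rnr2 was higher in the high-ratio libraries of each group, as in young (48651 against 15514 to 23456) and Trem1-/- (52143 and 54709 against 17078). Differences of group means in mt-Rnr2 and in the total mitochondrial share therefore mix group with this split. The exact permutation tests of the rRNA, mRNA and tRNA shares and of the mt-Nd6 share of mRNA reads gave adjusted p = 0.743 in each of the 3 comparisons (12 tests, two-sided; the smallest unadjusted p possible was 0.0571 for 4 against 3 libraries and 0.1 for 3 against 3, so no such test could pass 0.05).

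**Figure D3:**
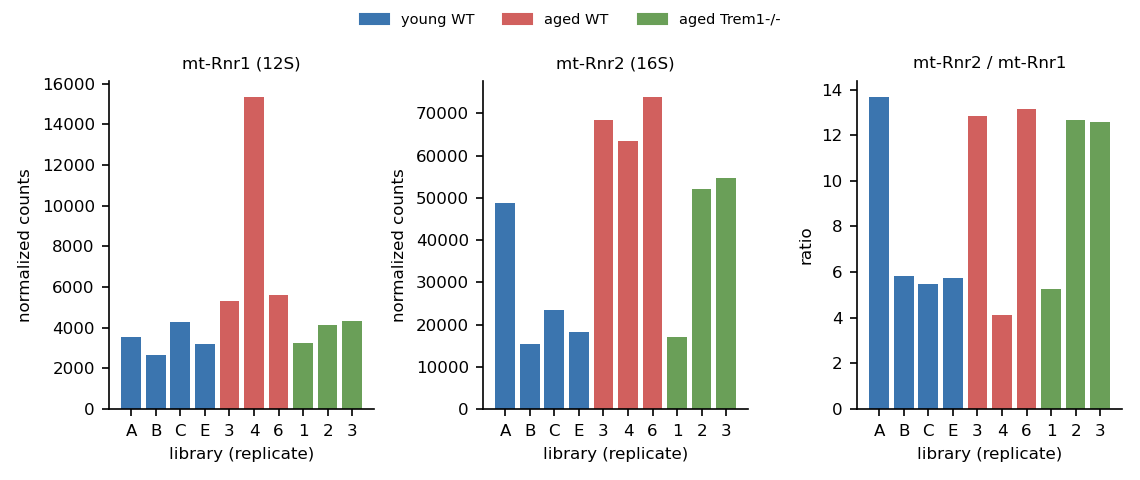
Bars from 0 show mt-Rnr1 and mt-Rnr2 in normalized counts and their ratio in each library, labelled by replicate and coloured by group. The ratio lies at 12.6 to 13.7 in 5 libraries and at 4.12 to 5.83 in the other 5, with each group on both sides.

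The tRNAs were barely read. Reads fell on 19 of the 22 tRNAs, while mt-Tf, mt-Td and mt-Tk had none in any library, which allows up to 3 reads or 1.85 to 3.84 normalized counts per library (counting error only). The 8 tRNAs of the minus strand held 611 of the 702 tRNA reads (87.0%) and the 14 of the plus strand 91. mt-Tp, the tRNA for proline at the end of the gene order, alone held 462 reads and was the only tRNA above the filter; mt-Tc held 86. All other tRNAs were lower still, mt-Tn coming next with 33 reads. Whether counting used the strand is not given in the sources used here, so for mt-Nd6 and the minus-strand tRNAs, reads of the gene and of a transcript on the opposite strand cannot be told apart.

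mt-Tp had 35.7, 33.9, 45.6 and 41.8 normalized counts in young wild type, 41.0, 147 and 43.1 in aged wild type, and 31.7, 19.2 and 25.2 in the libraries labelled Trem1-/-. Only aged replicate 4 exceeded the young range, and the libraries labelled Trem1-/- were below every other library. With age its log2 fold change was 0.70 ± 0.38 (limma adjusted p = 0.18). mt-Tc had 4.36, 3.08, 7.21 and 5.81 in young, 6.40, 27.3 and 8.09 in aged wild type, and 5.11, 8.81 and 11.5 in the libraries labelled Trem1-/-, too few to be tested. Of 6 tRNAs with an adjusted p in the authors' deposited table, 1 was higher with age (mt-Tm, 21 reads in all libraries).

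Aged mice labelled Trem1-/- were next compared with aged wild type, which asks how the labelled genotype goes with these transcripts at that age. All 16 tested members had a negative log2 fold change, from -1.41 to -0.91 with a median of -1.06, and the median of all genes was 0.02. Of the 16, 6 fell and 0 rose (limma, Benjamini-Hochberg adjusted p under 0.05), against 6.82% of all genes that fell; 14 had an unadjusted p under 0.05. For 12 of 16 every library labelled Trem1-/- was below every aged wild-type library, against 15.5% of all genes. The aged wild-type libraries are also those of the comparison with age, so the 2 comparisons are not independent.

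The 6 members that fell were mt-Nd6, mt-Nd5, mt-Nd1, mt-Co2, mt-Co1 and mt-Tp. mt-Nd6 had 1033, 856 and 1085 normalized counts in Trem1-/- replicates 1, 2 and 3, below the 1553 of the lowest aged wild-type library, and fell by 1.09 ± 0.29 on the log2 scale (limma adjusted p = 0.0262). mt-Nd5 had 5219, 4503 and 5131, again without overlap (-1.06 ± 0.31, limma adjusted p = 0.0366). mt-Nd1 had 2663, 2532 and 2847 (-1.17 ± 0.35, limma adjusted p = 0.0395), also below all of aged wild type. The cytochrome oxidase subunits mt-Co2 and mt-Co1 had 54.2, 73.7 and 91.8, and 8968, 9384 and 10129 normalized counts. Neither overlapped aged wild type, with log2 fold changes of -1.22 ± 0.37 and -0.95 ± 0.30 (limma adjusted p = 0.0392 and 0.04998). mt-Tp fell by 1.33 ± 0.41 (limma adjusted p = 0.043).

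The other mRNAs were lower on average without passing. mt-Cytb had 3172, 3434 and 3819 normalized counts in the libraries labelled Trem1-/-, mt-Nd4 had 1567, 1622 and 1777, and mt-Nd2 had 1444, 1406 and 1498. These, mt-Atp6 (144, 184 and 242), mt-Rnr1 and mt-Rnr2 stayed below every aged wild-type library, with mt-Atp6 replicate 3 only just below 246. mt-Co3 (48.0, 66.5 and 89.5), mt-Nd3 (18.4, 40.9 and 22.9), mt-Nd4l (8.17, 27.2 and 14.9) and mt-Atp8 (11.2, 13.6 and 17.2) overlapped aged wild type. The rRNAs had log2 fold changes of -0.99 ± 0.34 for mt-Rnr1 (limma adjusted p = 0.0602) and -0.91 ± 0.46 for mt-Rnr2 (limma adjusted p = 0.191).

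These calls lay close to the threshold. Leaving out single libraries gave 0 to 9 fallen members: 9 without aged wild-type replicate 3, 0, 1 and 2 without Trem1-/- replicates 1, 2 and 3, and 1, 2, 3 and 3 without young replicates A, B, C and E. None of the 6 was called in each of the 10 such fits. Without aged wild-type replicate 4, 5 members fell (mt-Nd1, mt-Nd5, mt-Nd6, mt-Co1 and mt-Co2) with a median of -0.56, so the size shrank while all but mt-Tp passed (mt-Tp adjusted p = 0.057). edgeR's quasi-likelihood test on recovered reads called 10 members lower and DESeq2 called 14.

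**Figure D4:**
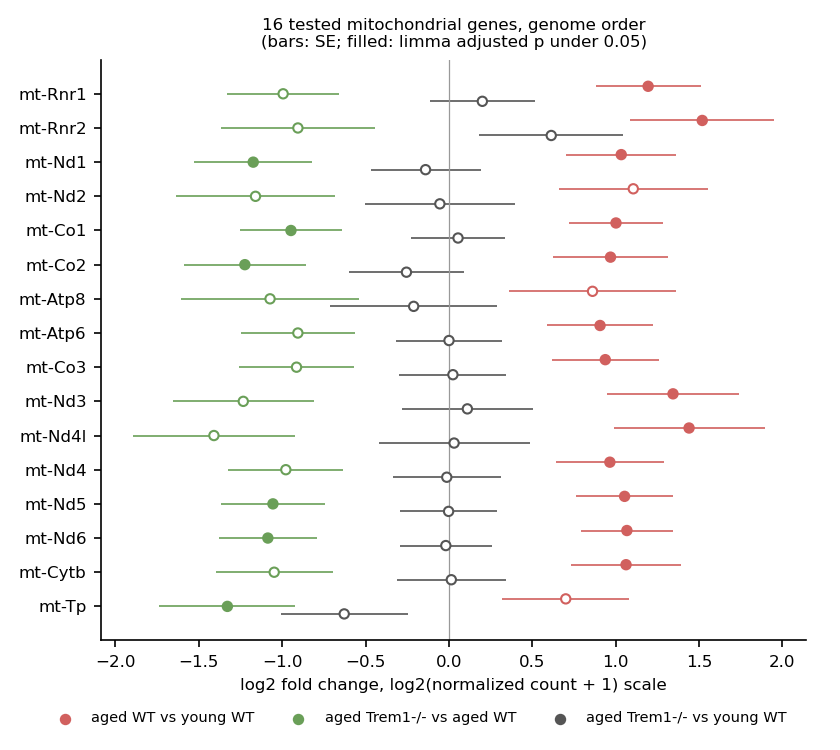
Log2 fold changes on the log2(normalized count + 1) scale of the 16 tested members in 3 comparisons, in genome order; bars are SE and filled points have a limma adjusted p under 0.05. Aged against young wild type lies between 0.70 and 1.52 with 13 filled points, aged Trem1-/- against aged wild type between -1.41 and -0.91 with 6, and aged Trem1-/- against young wild type around 0 with none.

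Set against young wild type, the aged libraries labelled Trem1-/- showed no member past the threshold with limma (0 of 16, against 0.921% of all genes called in either direction), 0 at an unadjusted p under 0.05, and 0 with edgeR or DESeq2. The mRNAs had log2 fold changes of -0.25 (mt-Co2) to 0.11, each with an SE of 0.27 to 0.50, so changes of that order remain within the error. mt-Co1 differed by 0.05 ± 0.28 and mt-Rnr1 by 0.20 ± 0.31. The values of 15 of 16 members overlapped between these groups, and 0 lay wholly above young wild type, as 8.05% of all genes did. mt-Rnr2 (0.61 ± 0.43, limma adjusted p = 0.577) overlapped across a wide range in both groups. mt-Tp did not overlap, its libraries labelled Trem1-/- all being below the young ones, as for 7.72% of all genes (-0.63 ± 0.38, limma adjusted p = 0.498).

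As a share of all reads, mitochondrial transcripts were again highest in aged wild type. They took 2.13%, 1.19%, 1.72% and 1.22% of reads in young replicates A, B, C and E. In aged wild type the shares were 3.17%, 5.26% and 3.62%, and in aged Trem1-/- they were 1.26%, 2.17% and 2.39%. Aged wild type overlapped neither other group. The mean difference was 2.45 percentage points from young (exact two-sided permutation p = 0.0571, adjusted 0.15) and -2.08 from aged wild type to aged Trem1-/- (exact p = 0.1, adjusted 0.15), each the smallest p its design allows; Trem1-/- and young differed by 0.373 points (exact p = 0.286). Without mt-Rnr2 the mean shares were 0.816% in young, 1.98% in aged wild type and 0.803% in aged Trem1-/-, so the order of young and Trem1-/- turned while aged wild type stayed highest. The mRNAs alone took 0.626% to 0.930% in young, 2.98% in aged wild-type replicate 4, at most 1.17% in the other two aged wild-type libraries, and 0.651% to 0.743% with the Trem1-/- label. Within the mRNA reads the minus-strand gene mt-Nd6 held 3.54% to 4.51% in all libraries, and its ratio to its plus-strand neighbour mt-Nd5, with which it shares 14 bases, was 0.19 to 0.215. Counts of mt-Nd6 thus kept nearly the same proportion to those of the plus-strand mRNAs from library to library. Whether counting used the strand is not given, so these counts may include reads of the opposite strand, and the balance of the strands was not tested.

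Markers of red cells were highest within their group in aged wild-type replicate 4 and young replicate C, where the abundant mitochondrial mRNAs were also highest. The 6 erythroid markers, globins and haem genes among them, were all read in each group and summed to 23819 normalized counts in aged wild-type replicate 4, against 538 and 476 in replicates 3 and 6. In young replicate C, the highest young library for the abundant mRNAs, they summed to 760, against 9.30 to 105 in the other young libraries, and in the libraries labelled Trem1-/- to 17.2 to 58.5. Elsewhere the order differed. Aged replicates 3 and 6 had fewer erythroid counts than young replicate C but higher sums of the 13 mRNAs (34448 and 38022 against 32844). Trem1-/- replicate 2 had the most erythroid counts of its group (58.5) with an mRNA sum of 24143. Replicate 1 of that group had 22.5 erythroid counts and a nearly equal mRNA sum (24349), and replicate 3 had 17.2 and 26764. The part of the erythroid markers in the mitochondrial values was not tested. With aged replicate 4 and young replicate C both left out, a check chosen after the data were seen, 8 members rose with age and the median was 0.65. These were not the same 8 as without aged replicate 4 alone: mt-Nd2 was called and mt-Rnr2 was not. Of them, 7 were also called with all libraries. Markers of mast cells (841 to 1895 for aged wild type, 44.2 to 1131 for young, 113 to 1477 for Trem1-/-) and of mesothelial cells and fibroblasts (384 to 640, 8.62 to 461 and 11.2 to 437) were high in aged wild type, young replicate C and Trem1-/- replicate 2. Neutrophil markers summed, in that order of groups, to 210 to 545, 633 to 901 and 739 to 764, with Ly6g at 0 in young and Trem1-/- libraries and Mpo at 0 in the latter. Only 1 of the 6 neutrophil markers reached the mean of 10 needed for testing, so these sums rest mostly on 1 gene.

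**Figure D5:**
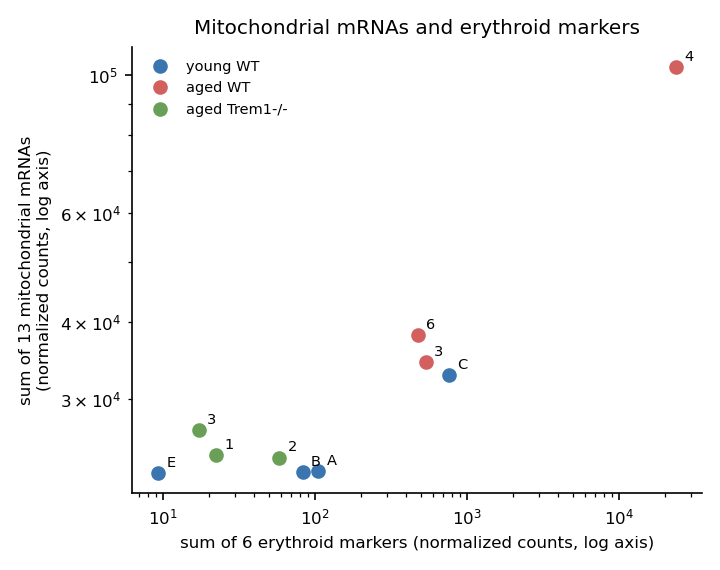
Sum of the 13 mitochondrial mRNAs against the sum of 6 erythroid markers (both normalized counts, log axes); each point is a library, coloured by group and labelled by replicate. Aged wild-type replicate 4 lies alone at the upper right (23819 erythroid counts), and aged replicates 3 and 6 and young replicate C lie between it and the remaining libraries.

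Nuclear genes for the same complexes did not rise with the mitochondrial ones. Of 71 tested nuclear subunits of complexes I, III and IV and of ATP synthase, 28 fell and 0 rose in aged against young wild type (19.0% of all genes fell), with a median log2 fold change of -0.33. Complex I subunits fell in 12 of 37, led by Ndufa1 (-0.94), Ndufb4 (-0.75) and Ndufs5 (-0.67). Complex III subunits fell in 4 of 9, among them Uqcrb (-1.01), Uqcr11 (-0.87) and Uqcrq (-0.46). Complex IV genes fell in 7 of 11, such as Ndufa4 (-0.66), Cox6a1 (-0.55) and Cox7b (-0.50), and ATP synthase genes in 5 of 14, such as Atp5j (-0.53), Atp5a1 (-0.37) and Atp5b (-0.34). The 28 became 9 to 25 with 1 library left out (9 without aged replicate 6, 11 without young replicate E, 15 without aged replicate 3, 17 without young replicate C) and 12 with libraries scaled to their totals outside mitochondrial genes. With edgeR 21 fell and with DESeq2 18. Of the genes just named, Ndufa1, Uqcrb, Uqcr11, Atp5j and Atp5a1 were called lower with age in each of the 10 fits with 1 library left out. Ndufb4 was called in 9 of those fits, Ndufa4 in 8, Uqcrq in 7, Ndufs5 and Atp5b in 6, Cox7b in 5 and Cox6a1 in 1. In aged Trem1-/- against aged wild type 2 of the 71 rose (Ndufb4, 0.73, and Ndufb5, 0.59) and 0 fell, where 11.5% of all genes rose and 6.82% fell. With edgeR and DESeq2 0 rose, and with 1 library left out 0 to 8 rose, the 8 without aged replicate 4; Ndufb4 was called in 3 and Ndufb5 in 1 of the 10 such fits. Against young wild type 0 of 71 passed in either direction with limma (complex I: 3 of 37 at an unadjusted p under 0.05) or edgeR, and 1 fell with DESeq2.

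Among nuclear genes that maintain and express the mitochondrial genome, 9 of 99 tested genes in 6 lists rose with age and 2 fell, or 4 to 11 and 2 to 4 with 1 library left out, where 14.3% of all genes rose and 19.0% fell. Of the genes named next, Dna2, Gars, Gabpb1 and Qrsl1 were called in each of the 10 fits with 1 library left out, and the others lost the call in 1 to 6 of them. Of 17 tested genes of mitochondrial DNA maintenance and transcription, Polg2, the accessory subunit of the mitochondrial DNA polymerase (0.72), and Tfam, which packages the genome and starts its transcription (0.49), rose with age, and Dna2, a nuclease and helicase, fell (-1.62). Of 21 RNA processing and turnover genes 0 passed with limma (3 at an unadjusted p under 0.05), while edgeR called 1 higher and DESeq2 called 0. Of 21 genes that modify mitochondrial rRNA and tRNA, Osgepl1 (1.16) and Trmt2b (0.68) rose. Of 22 tRNA charging genes Qrsl1, which helps to make glutaminyl-tRNA (1.33), and the methionyl-tRNA synthetase Mars2 (0.68) rose and the glycyl-tRNA synthetase Gars fell (-0.37). Of 12 translation factors Mtfmt, which formylates the initiator tRNA (0.69), and Gfm2, which helps to recycle ribosomes (0.44), rose, as did 1 of 6 biogenesis regulators, Gabpb1 (0.72). In aged Trem1-/- against aged wild type Polg2 (-1.12) and Qrsl1 (-1.13) fell and the leucyl-tRNA synthetase Lars2 rose (0.51), among 99 tested genes where 6.82% of all genes fell and 11.5% rose. Polg2 was called in each of the 10 fits with 1 library left out, Qrsl1 was not without aged wild-type replicate 3 or 6 or Trem1-/- replicate 2, and Lars2 was not without Trem1-/- replicate 2. The RNA processing, modification, translation factor and regulator lists had 0 calls with limma (2, 2, 1 and 1 genes at an unadjusted p under 0.05). Over the 6 lists edgeR called 4 genes lower and 1 higher in that comparison, and DESeq2 called 2 and 2. Against young wild type Dna2 was the only gene of these lists to pass with limma (-1.39; 0.921% of all genes were called), and it passed in 4 of the 10 fits with 1 library left out, failing without young replicate A, C or E or any of the libraries labelled Trem1-/-.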

How the data were processed

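The authors deposited 1 table for the series, with a normalized count per gene and library (signal) and their own comparison of aged with young wild type: the mean signal, a log2 fold change with its error, a Wald score and a p-value, raw and adjusted, per the file headers. Per the submitters' processing notes, the tools were STAR, fastp, DESeq2 1.20.0 and featureCounts 1.5.0-p3, with GRCm38; how multiply mapping reads and strand were handled, and which annotation, is not given in the sources used here. Every library column held whole multiples of 1 number (100% of values within 1e-06), so reads were recovered by division. Coordinates and sequences are from GENCODE M21 (all 37 symbols matched), and copies were searched with blastn 2.17.0 (at least 90% identity over 100 bases; near-identical from 99%). limma 3.58.1 (R 4.3.3) with a trend was fitted to log2(normalized count + 1), which understates changes of low genes. It used the normalized values as deposited, in 1 model of all 10 libraries, and kept genes whose mean reached 10 (11506). A run of it on simulated data is not used as support for changes of the size reported here. edgeR 4.0.16 and DESeq2 1.42.0 on recovered reads were alternatives. Shares were compared by exact permutation. A floor of 3 reads and other counting errors cover counting only. All members are named by class; in each nuclear list up to 3 called genes with the largest change are named. Members and lists were chosen with earlier results of these data known.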

Additional observations from a re-analysis of the deposited data

Results flagged for a closer look

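In young wild type, replicate C stood further from the other 3 libraries than Dixon's 95% critical value for 4 samples allows for 7 members and 2 shares. It had 3965 normalized counts of mt-Nd1 (next highest young library 2717), 2031 of mt-Nd2 (1385), 11710 of mt-Co1 (8563), 2116 of mt-Nd4 (1562), 6658 of mt-Nd5 (4584), 1308 of mt-Nd6 (934) and 4618 of mt-Cytb (3158). Mitochondrial mRNAs took 0.930% of its reads (next 0.663%), and mitochondrial transcripts without mt-Rnr2 took 1.05% (next 0.752%). Chance alone flags about 1 in 20 groups; 27 groups of values were examined and these 9 stood out. They are not independent, since all come from the same library. The groups of 3 libraries, which include aged wild-type replicate 4, were not examined in this way.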

How the results depend on the processing

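Of 320 alternative values for single members in aged against young wild type, 0 changed direction, 262 kept their side of the threshold, 52 lost and 6 gained a call; 13 risen members became 5 to 14 with 1 library left out, 8 without aged replicate 4 and young replicate C together, and stayed within 1.5 times otherwise. For aged Trem1-/- against aged wild type 0 of 320 changed direction; the 6 fallen members became 0 to 9 with 1 library left out, 11 with libraries scaled to totals outside mitochondrial genes, 10 with edgeR, 14 with DESeq2 and 0 when only the 2 groups compared were fitted. 9 passed without the filter and 9 without aged replicate 4 and young replicate C together. That scaling moved the median of all genes by 0.10 in the comparison with age and by -0.13 in that with genotype. Against young wild type 33 of 320 values changed sign (-0.38 to 0.14, 11 members) and 0 passed. With 1 library left out, differences in percentage points ranged from -6.47 to 9.70 for rRNA, from -9.67 to 6.47 for mRNA and from -0.0313 to 0.00732 for tRNA among mitochondrial reads in aged Trem1-/- against aged wild type (1.73, -1.71 and -0.0154 with all libraries). The mt-Nd6 share of mRNA reads ranged from -0.104 to 0.305 with age (0.103), from -0.351 to 0.0583 with genotype (-0.149) and from -0.193 to 0.156 for Trem1-/- against young (-0.0458); without members that have a near-identical copy the last pair were 0.0265 and 0.0782. The cause of these changes was not tested. 21 of 22 tRNAs were too low to test. No paired analysis was possible because the groups compared share fewer than 2 replicate numbers in the labels.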

Other observations

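mt-Nd2 stood out among the mRNAs in aged wild-type replicate 4, at 5.02 times the mean of aged replicates 3 and 6; the other mRNAs were at 2.45 (mt-Nd6) to 4.10 times (mt-Atp8, from few reads). Its partial nuclear copy Gm13339 held 33 reads over all libraries.

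Among the 9 less similar nuclear copies, Gm13340, a full-length copy of mt-Co1 at 97.6% identity on chromosome 2 (22588103 to 22589647, minus strand, GRCm38), held 328 reads, and the full-length copies Gm11408 of mt-Nd6 and Gm11410 of mt-Cytb held 0 and 1. With age 3 of the 7 near-identical copies rose (median log2 fold change 0.96; 14.3% of all genes rose). In aged Trem1-/- against aged wild type 1 of 7 fell (median -0.87, where 6.82% of all genes fell). Of the 7 fold changes 6 were negative and 1 was positive (0.08), with an SE of 0.31 to 0.71 over the copies. Because a read cannot be assigned between a member and an identical copy, no difference between copies and members is drawn from this.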
